A study of Homo sapiens with 8 samples.

Results

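NELL2, a secreted glycoprotein related to NELL1, and 4 genes for proteins that bind NELL proteins (ATRAID, CNTNAP4, ROBO2 and ROBO3) were followed in 143B osteosarcoma cells. These 5 genes were taken by name from a table of 54174 gene symbols, by no threshold on their values, and the NELL1 row was set beside them for reference. 143B is an established human osteosarcoma line, a tumorigenic derivative of the HOS line. The 4 control libraries came from cells carrying a vector plasmid and the 4 knockout libraries from cells carrying a plasmid labelled NELL1KO, each 48 h after transient transfection with the TransIT-LT1 reagent in the same serum-supplemented medium. The labels name the genotypes control and NELL1 knockout, call the libraries biological replicates, and give neither a selected clone nor the share of cells edited. What separated the replicates is not stated, so p-values measure the spread between these libraries. All values are deposited log2 values per gene symbol, of which more follows below.

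NELL1 and NELL2 are secreted proteins with a thrombospondin-like domain at one end, followed by von Willebrand factor type C and EGF-like repeats. NELL1 is known for promoting osteoblast differentiation and bone formation, whereas NELL2 is best known as a neuronal ligand that repels commissural axons. Of the receptors, ATRAID is a membrane protein that binds NELL1 and also serves the lysosomal transport of bisphosphonate drugs. CNTNAP4 is a neurexin-like adhesion protein of the Caspr family, reported as a cell surface receptor for NELL1. ROBO3 is the Roundabout receptor that binds NELL2, and ROBO2 is a Roundabout receptor that binds Slit proteins and has been reported to bind NELL1.

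The receptors were not expressed alike. ATRAID and ROBO3 were measured well above the low range in all 8 libraries, NELL2 was measured at an intermediate level, ROBO2 had values close to the lowest ones, and CNTNAP4 was blank in every library. The RefSeq table of promoter windows (GRCh38.p14), each of 300 bases around a start site, held at least 1 window for 4 of the 6 genes, NELL1 and NELL2 being without an entry. The window with the most CG dinucleotides of each receptor is printed 5′ to 3′ on the plus strand with every CG in capitals, to set the blank receptor beside the measured ones. The windows are chr2:27211791-27212090 for ATRAID, chr11:124865182-124865481 for ROBO3, chr3:77039849-77040148 for ROBO2 and chr16:76277151-76277450 for CNTNAP4.
ATRAID: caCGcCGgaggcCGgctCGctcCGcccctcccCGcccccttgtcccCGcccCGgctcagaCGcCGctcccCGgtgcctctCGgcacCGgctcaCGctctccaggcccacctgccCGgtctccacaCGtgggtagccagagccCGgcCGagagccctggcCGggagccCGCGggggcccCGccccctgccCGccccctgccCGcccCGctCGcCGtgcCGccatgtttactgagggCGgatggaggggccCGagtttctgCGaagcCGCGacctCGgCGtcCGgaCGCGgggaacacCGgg
ROBO3: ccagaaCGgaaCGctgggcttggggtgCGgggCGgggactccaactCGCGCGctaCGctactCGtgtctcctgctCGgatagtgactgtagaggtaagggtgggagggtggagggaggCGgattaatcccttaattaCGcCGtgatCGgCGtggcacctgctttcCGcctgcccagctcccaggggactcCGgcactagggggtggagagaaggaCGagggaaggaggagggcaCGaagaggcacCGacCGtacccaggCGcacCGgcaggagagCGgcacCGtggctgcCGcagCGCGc
ROBO2: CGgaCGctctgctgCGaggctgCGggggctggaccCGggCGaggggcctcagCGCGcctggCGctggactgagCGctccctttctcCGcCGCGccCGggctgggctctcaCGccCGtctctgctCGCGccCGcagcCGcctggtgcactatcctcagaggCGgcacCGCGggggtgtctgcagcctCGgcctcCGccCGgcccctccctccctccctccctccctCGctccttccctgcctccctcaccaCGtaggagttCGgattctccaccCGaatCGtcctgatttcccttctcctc
CNTNAP4: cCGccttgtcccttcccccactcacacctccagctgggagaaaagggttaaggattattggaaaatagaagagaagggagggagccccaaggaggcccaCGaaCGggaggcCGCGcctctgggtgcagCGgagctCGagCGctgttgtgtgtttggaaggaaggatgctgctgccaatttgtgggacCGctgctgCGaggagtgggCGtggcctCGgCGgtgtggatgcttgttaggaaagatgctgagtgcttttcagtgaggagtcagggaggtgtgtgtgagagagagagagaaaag
The letters CG, which read the same on both strands, occurred 39 times in the ATRAID window, 28 times in that of ROBO3, 31 times in that of ROBO2 and 13 times in that of CNTNAP4. Windows with at least as many CG made up 8.71% (ATRAID), 26.2% (ROBO3), 20.7% (ROBO2) and 51.7% (CNTNAP4) of all 35116 windows. These shares count every window of every gene, whereas each receptor is shown by its richest, so receptors with more than 1 window look rarer. By each gene's richest window, 2247 protein-coding genes that were blank in all libraries had a median of 4 CG (quartiles 2 and 13). The 7420 with a mean log2 value of at least 1 had a median of 29 (quartiles 22 and 37). ROBO2 thus had a window as rich in CG as the well measured genes, although its own level was among the lowest. CG content is a description of these windows and says nothing of which start site the cells used.

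The library facts that bear on these genes are few. A value was present for 14911 to 15171 symbols per library, and all 8 columns had the same mean (1.07), lowest value (-10.48) and highest value (12.13), so the deposited values had been set to one distribution. Knockout libraries 1 and 2 lay close together (SD across genes of their difference, 0.12), as did knockout libraries 3 and 4 (0.13), while knockout libraries of different pairs differed by 0.456 to 0.50. That was more than any control differed from any knockout library (0.355 to 0.454). The controls differed among themselves by 0.10 to 0.29. Of 9 genes fixed as mesenchymal or osteoblast markers, 6 had a value in all 8 libraries and 3 had a mean of at least 1. These 3 were VIM (10.19 to 10.87), SPP1 (3.08 to 4.70) and TWIST1 (1.93 to 2.35). RUNX2 (0.05 to 0.43), COL1A1 (-1.45 to 0.90) and ALPL (-1.75 to -0.34) were measured in every library at lower levels. The osteoblast factor SP7 was blank in all 8 libraries. COL1A2 had a value in 4 of them, between -7.55 and -4.82, and BGLAP in 3, between -4.29 and -1.46. Of 9 neuronal markers 6 had a value in all 8 libraries and 0 had a mean of at least 1.

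The targeted gene was at the limit of measurement. NELL1 (chr11:20669551-21575681, plus strand, GRCh38) had log2 values of -6.97, -6.97, -4.53 and -5.00 in control libraries 1 to 4. The knockout values were -4.82, -5.87 and -6.96 for libraries 1, 2 and 4, with no entry for library 3. Low and less low values occurred in both groups, and the groups overlapped. Their difference was -0.01 (exact permutation test, two-sided, 35 splits without the blank cell, p = 1), so the NELL1 transcript did not check the labels.

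How low these values are was read from genes with a value in exactly 1 library, which numbered 693 with a known transcript length. Among them the log2 value fell with transcript length (Pearson's r = -0.74, Spearman's rho = -0.76, across genes of 8 libraries that share depth and scaling; genes are not independent replicates), as in a unit that divides by length. Genes of this kind with a longest transcript like that of NELL1 (3329 bases; at most 25% longer, or shorter by the same factor) numbered 150 and had a median of -6.95 (quartiles -7.25 and -6.70). NELL1 was within 0.1 of that median in control libraries 1 and 2 and knockout library 4, and exceeded it by at most 2.42. It was above the upper quartile in 4 of 8 libraries. The unit before the logarithm is not stated, so levels of different genes are compared here by rank within a library and by this reference.

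**Figure D1:**
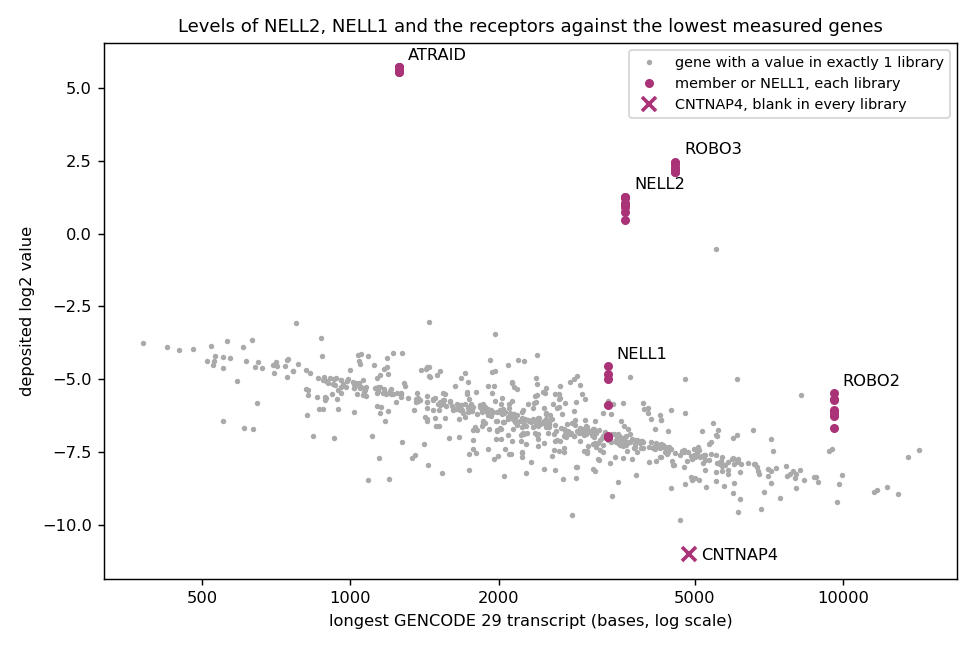
Deposited log2 value against the length of the longest transcript (log scale) for 693 genes with a value in exactly 1 library (grey) and for NELL1, NELL2 and the receptors in each library (purple). ATRAID, ROBO3 and NELL2 lie far above the grey band, ROBO2 a little above it, NELL1 within and just above it, and the cross marks CNTNAP4, which has no value.

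The ligand that was clearly measured was NELL2 (chr12:44508275-44921848, minus strand, GRCh38). It measured 1.24, 1.26, 0.92 and 1.27 (log2) in control libraries 1 to 4 and 1.06, 0.98, 0.75 and 0.46 in knockout libraries 1 to 4. Control library 3 was the low one of its group and overlapped the 2 higher knockout libraries, so the groups did not separate. Ranked among the measured genes of a library, NELL2 stood at percentiles 34.5 to 43.4 and NELL1 at 2.30 to 9.52. It exceeded the median of single-library genes of like length by 7.56 to 8.36 log2 units in the 8 libraries.

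The control mean of NELL2 was 1.17 ± 0.17 (SD, n = 4) and the knockout mean 0.82 ± 0.27 (SD, n = 4). An exact two-sided permutation test over 70 splits gave p = 0.0857 for the difference of -0.36, where the lowest p attainable is 0.0286. The mean of NELL2 over all 8 libraries, 0.99, was just under the minimum of 1 for the fit across genes. In the limma fit without that minimum, over 13943 genes, its difference had a 95% interval of -0.70 to -0.01 and a Benjamini-Hochberg adjusted p = 0.176. In that fit 8.3% of genes were called changed at an adjusted p under 0.05, and 26.6% had an unadjusted p under 0.05, as did NELL2. NELL2 was lower in the knockout library in 4 of 4 same-numbered pairs, by 0.17, 0.28, 0.17 and 0.80 in pairs 1 to 4. The same held for 16.7% of all genes with a value in every library, so such a run of pairs was common among the measured genes. The difference came to -0.22 for replicates 1 and 2 (limma adjusted p = 0.0516) and to -0.49 for replicates 3 and 4 (limma adjusted p = 0.135). These fits set 2 controls against 2 close knockout libraries. With the minimum mean, they called 5380 and 2987 of the 9016 genes, so a p near the threshold is no near-call.

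NELL2 is a gene of neurons in the first place, so the 9 neuronal markers were read beside it. They did not move one way. Without the minimum mean, the vesicle fusion gene SNAP25 rose by 0.79 (limma adjusted p = 0.00515) and the growth cone gene GAP43 fell by 0.92 (limma adjusted p = 0.0151; 0.0630 with the replicate block), while the other 4 with a value in all 8 libraries did not pass the test. The summed level of the list, which its higher genes such as SNAP25 set, was 0.85 to 1.07 in the control libraries and 1.14 to 1.47 in the knockout libraries (log2). The part of such changes in the values of NELL2 was not tested.

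ATRAID had the highest level of the 5 genes. The gene (chr2:27212027-27217178, plus strand, GRCh38) had log2 values of 5.53, 5.65, 5.69 and 5.68 in control libraries 1 to 4 and 5.71, 5.70, 5.68 and 5.52 in knockout libraries 1 to 4. Control library 1 and knockout library 4 were the low ones, and the groups overlapped almost entirely. ATRAID stood at or above percentile 94.2 in every library and exceeded single-library genes of like length by at least 11.02 log2 units. Its difference was 0.01 ± 0.07 (SE) with a 95% interval of -0.15 to 0.17 (limma, Benjamini-Hochberg adjusted p = 0.925 over 9016 genes). A change of ATRAID beyond that interval was not found in either direction. The sign of so small a difference was not stable: it came to 0.11 for replicates 1 and 2 and to -0.08 for replicates 3 and 4, neither past the threshold (limma adjusted p = 0.139 and 0.513).

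ATRAID shares 932 bases at its 5′ end with SLC5A6, a vitamin transporter gene on the opposite strand. The library kit keeps strand, but whether the counting used it is not given in the sources used here. SLC5A6 averaged 2.98 in the controls and 3.41 in the knockouts (limma adjusted p = 0.0525; 0.0451 with the replicate block, past the threshold), beside the difference of 0.01 for ATRAID.

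ROBO3 was the better measured of the Roundabout receptors among the 5 genes. It lies at chr11:124865386-124881470 (plus strand, GRCh38) and had log2 values of 2.44, 2.46, 2.23 and 2.42 in control libraries 1 to 4. The values in knockout libraries 1 to 4 were 2.29, 2.44, 2.12 and 2.09. Knockout libraries 3 and 4 were below all controls, knockout library 2 was not, and the groups overlapped. ROBO3 stood between percentiles 54.6 and 60.3 and exceeded single-library genes of like length by 9.51 to 9.88 log2 units. The difference was -0.15 ± 0.10 (SE) with a 95% interval of -0.37 to 0.07 (limma adjusted p = 0.326; exact permutation p = 0.229). It was below its same-numbered control in 4 of 4 pairs, by 0.15, 0.03, 0.11 and 0.33, a count that 16.7% of genes share. ATRAID and ROBO3 were the only 2 of the 5 genes with a mean of at least 1, and 0 of 2 were called changed, against 13.1% of the 9016 genes in the limma fit. At an unadjusted p under 0.05 were 0 of 2 as well, against 2675 of the 9016 genes.

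ROBO2, which guides axons and the outgrowth of the ureteric bud through Slit signals, was measured in every library but at a very low level. The gene (chr3:75906695-77649964, plus strand, GRCh38) had log2 values of -6.27, -5.46, -5.66 and -6.04 in control libraries 1 to 4 and -6.18, -5.72, -6.08 and -6.66 in knockout libraries 1 to 4. The groups overlapped, and each spanned about the same range. ROBO2 stood between percentiles 3.07 and 6.5. Because its longest transcript is 9570 bases, it still exceeded the median of 20 single-library genes of like length (-8.33) by 1.67 to 2.87 log2 units, and it was above their upper quartile in 8 of 8 libraries. The difference was -0.30 (exact permutation p = 0.286; limma adjusted p = 0.465 without the minimum mean). The interval of the difference, -0.85 to 0.25, held both 0 and changes in either direction.

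CNTNAP4 (chr16:76277278-76559238, plus strand, GRCh38) had no value in any of the 8 libraries. Blank cells are treated as missing, and the rule that made them blank is not given in the sources used here. As a reference, 12 genes typical of other organs, such as the insulin gene INS and the β-globin gene HBB, were read in the same way: 6 were blank in all 8 libraries and the others had values from -7.74 to -1.92. ROBO2 and NELL1 lay inside that range, and ATRAID, ROBO3 and NELL2 above it. Ranked by level, ATRAID, ROBO3 and NELL2 followed each other with no overlap of their 8 values, while NELL1 and ROBO2 overlapped. In bulk RNA, fewer cells that express a gene and less RNA per cell cannot be told apart.

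**Figure D2:**
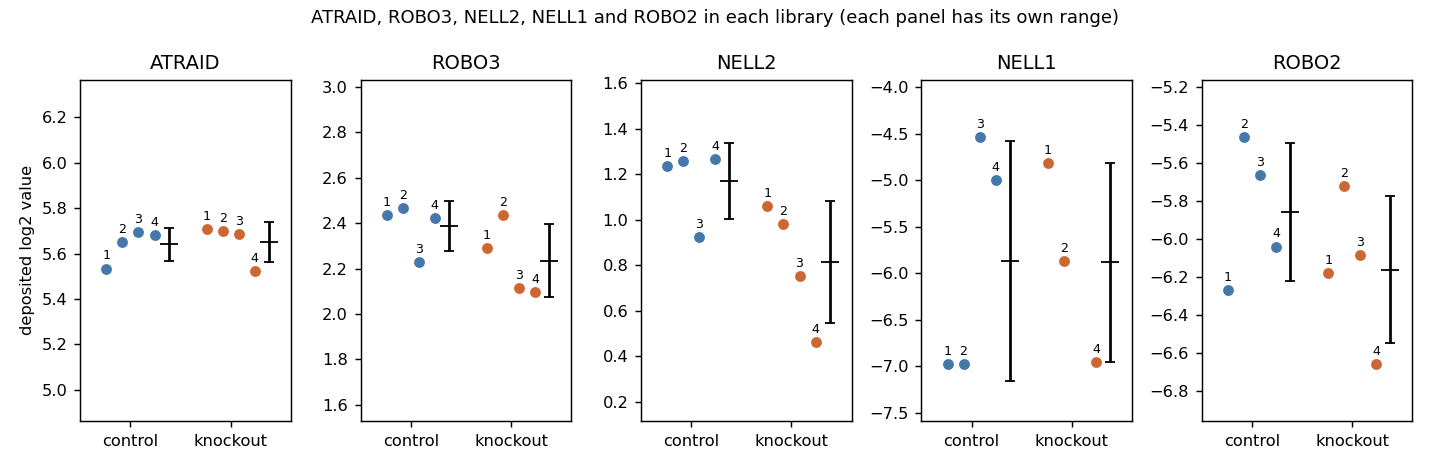
Deposited log2 values of ATRAID, ROBO3, NELL2, NELL1 and ROBO2 in control (blue) and knockout (orange) libraries, numbered by replicate, with the mean and SD of each group in black; each panel has its own axis. Control and knockout values overlap in every panel, and NELL1 has no point for knockout library 3.

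The other genes of these pathways, 54 in 8 lists, were read in the same way: 45 had a value in every library and 30 entered the limma fit. Of the 30, 8 were called changed (26.7%, against 13.1% of all tested genes). The lists were chosen with earlier results of these data known, so the higher share is a description and not an independent result. Of the calls 4 were higher and 4 lower in knockout cells, against 7.02% and 6.1% of all tested genes. The median difference of the 30 genes was -0.07, against 0.01 for all 9016 genes. FDPS, CAP2, ENAH and ABL2 rose, and ROBO1, ITGB1, CAP1 and SLC37A3 fell. With the replicate number as a block, 5 of the 8 were called and the background was 10.2%. Without the minimum mean, 3 of the 49 list genes with a value in every library were called, against 8.3% of 13943 genes. With the close knockout pairs each averaged to 1 library, 0 of 32 (ATRAID and ROBO3 included) were called by limma, against 108 of all 9016 genes. At an unadjusted p under 0.05 in that limma fit were 10 of the 32. No count over all genes was made there, so this number cannot set the list apart. In the main limma fit the counts were 12 of the 32 and 2675 of the 9016 genes.

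ROBO1, the broadly expressed Slit receptor of the family, fell. It measured 2.64, 2.66, 2.73 and 2.77 in control libraries 1 to 4 and 2.12, 2.14, 2.38 and 2.52 in knockout libraries 1 to 4, so every knockout library was below every control. Among all tested genes 22.9% had groups that did not overlap. The difference of ROBO1 was -0.41 ± 0.10 (SE; limma adjusted p = 0.0326), with -0.52 in replicates 1 and 2 and -0.30 in replicates 3 and 4. The call was lost with the knockout pairs averaged (limma adjusted p = 0.124), without the minimum mean (limma adjusted p = 0.0541) and when any 1 library other than knockout library 4 was left out (highest limma adjusted p = 0.103).

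ROBO4, the endothelial member of the family and the convergent neighbour of ROBO3 at a distance of 2220 bases, was split within the knockout group. It measured 1.21, 1.27, 0.92 and 1.16 (log2) in control libraries 1 to 4. The knockout values were 0.82 and 0.92 for libraries 1 and 2 but -0.38 and -0.56 for libraries 3 and 4. The difference over all libraries was -0.94 (limma adjusted p = 0.140 without the minimum mean), with -0.37 for replicates 1 and 2 against -1.51 for replicates 3 and 4 (limma adjusted p = 0.0282 and 0.0193). Of 5 endothelial markers only TIE1 had a mean of at least 1, and it fell from 5.11 to 4.66 (limma adjusted p = 0.00762). The summed level of the list, 4.99 to 5.19 in the controls and 4.61 to 4.72 in the knockouts (log2), was almost that of TIE1 alone. The defining markers CDH5, KDR and VWF were far lower, with control means of -6.02, -3.50 and -6.55 and knockout means of -5.11, -2.87 and -6.05. CDH5 had a value in 6 libraries, and neither KDR nor VWF passed the test (limma adjusted p = 0.739 and 0.406 without the minimum mean). KDR too was split, at 3.24 for replicates 1 and 2 and -1.97 for replicates 3 and 4 (limma adjusted p = 0.0193 and 0.0251). For ROBO4 and KDR alike, these fits rest on 2 controls and 2 close knockout libraries. With the minimum mean, such fits called 5380 (replicates 1 and 2) and 2987 (replicates 3 and 4) of the 9016 genes. PECAM1 averaged -3.85 in the controls and -4.17 in the knockouts (limma adjusted p = 0.561 without the minimum mean). The part of these genes in the values of ROBO4 was not tested. Within each group ROBO3 put the libraries in the same order as ROBO4, over a smaller range.

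**Figure D3:**
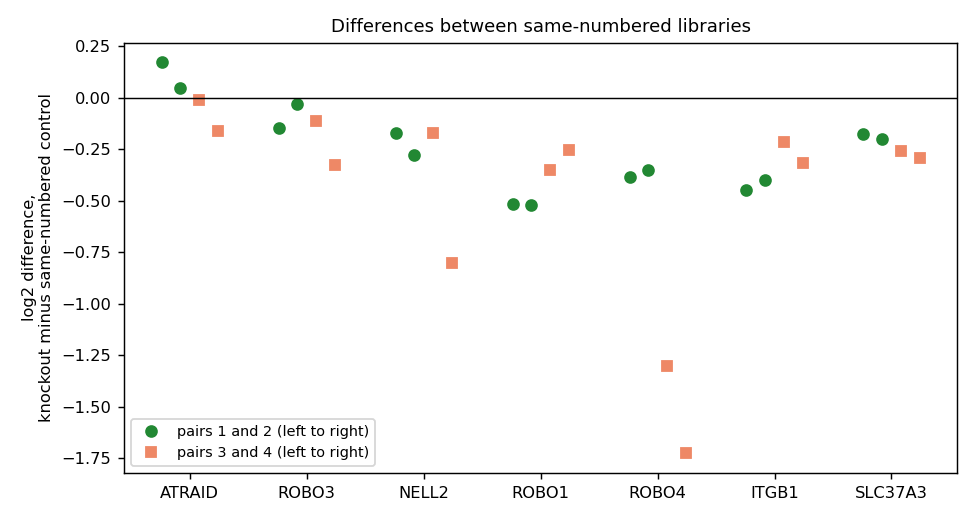
Log2 difference between each knockout library and the control library of the same number for 7 genes, with replicates 1 and 2 as green circles and replicates 3 and 4 as orange squares. ATRAID lies on both sides of 0, NELL2 and ROBO3 lie below 0 in 4 of 4 pairs, and ROBO4 is far lower in pairs 3 and 4 than in pairs 1 and 2.

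The Slit ligands were all low. SLIT1 ranged from -2.999 to -1.74, SLIT2 from -3.15 to -2.43 and SLIT3 from -4.68 to -2.93 over the 8 libraries, and in none of the 3 did the groups separate (limma adjusted p = 0.766, 0.679 and 0.856 without the minimum mean). SLIT3 went in opposite directions in the replicate sets, at 1.30 for replicates 1 and 2 and -0.98 for replicates 3 and 4 (limma adjusted p = 0.0478 and 0.0375). Each of these fits rests on 2 controls and 2 close knockout libraries, and with the minimum mean they called 5380 and 2987 of the 9016 genes. Of the 9 Slit ligands and co-receptors 4 entered the fit and 0 were called by limma, against 13.1% of all 9016 genes tested. At an unadjusted p under 0.05 was 1 of the 4, as were 2675 of the 9016 genes, so these counts set the list apart in neither way.

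Effectors that link Roundabout receptors to the actin skeleton were expressed throughout: 20 of 23 entered the fit. Of these, 4 were called (20%, against 13.1% of all tested genes), 3 higher and 1 lower. With the replicate block 2 of 20 were called, a share near the 10.2% of all genes in that fit. CAP2, an actin-binding cyclase-associated protein, had a control mean of 1.74 ± 0.09 (SD, n = 4) and a knockout mean of 2.18 ± 0.01 (SD, n = 4). Its rise of 0.44 (limma adjusted p = 0.0056) was called in every fit that left out 1 library and was lost only with the knockout pairs averaged (limma adjusted p = 0.0731). ENAH, which promotes actin filament elongation, rose by 0.39 (limma adjusted p = 0.0414), and the kinase gene ABL2 rose by 0.30 (limma adjusted p = 0.0439). CAP1, the broadly expressed relative of CAP2, fell by 0.25 (limma adjusted p = 0.0484). With the replicate block the calls of ABL2 (limma adjusted p = 0.0870) and CAP1 (limma adjusted p = 0.0783) were lost. Without the minimum mean, with the knockout pairs averaged, or with any 1 library left out but one, the calls of these 3 genes were lost, the exception being knockout library 4 for ENAH and ABL2 and control library 3 for CAP1.

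ITGB1, the integrin β1 chain that NELL1 binds on the cell surface, was the most abundant binding partner measured, between percentiles 98.4 and 98.8. It measured 7.70, 7.68, 7.65 and 7.76 in control libraries 1 to 4 and 7.26, 7.28, 7.44 and 7.45 in knockout libraries 1 to 4. All knockout libraries were below all controls. ITGB1 fell by 0.34 (SE 0.07; limma adjusted p = 0.0171), and by 0.42 in replicates 1 and 2 and 0.26 in replicates 3 and 4. The call was lost with the knockout pairs averaged (limma adjusted p = 0.113) and without control library 1, 2 or 4 (highest limma adjusted p = 0.0686).

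Both genes listed as partners of ATRAID, SLC37A3 and FDPS, were called, against 13.1% of all tested genes, and 1 of them with the replicate block. SLC37A3, the transporter that forms a complex with ATRAID in lysosomes, had log2 values of 3.10, 3.12, 3.07 and 3.05 in control libraries 1 to 4 and 2.93, 2.92, 2.81 and 2.76 in knockout libraries 1 to 4. It fell by 0.23 (limma adjusted p = 0.0481), a call lost with the replicate block (limma adjusted p = 0.0809), with the knockout pairs averaged (limma adjusted p = 0.197) and without any 1 of the 8 libraries (highest limma adjusted p = 0.140). FDPS, the sterol pathway enzyme that nitrogen-containing bisphosphonates inhibit, had log2 values of 3.64, 3.70, 4.08 and 3.74 in control libraries 1 to 4 and 4.18, 4.26, 4.46 and 4.54 in knockout libraries 1 to 4. It rose by 0.57 (limma adjusted p = 0.0195), with 0.55 in replicates 1 and 2 and 0.59 in replicates 3 and 4. Its call was lost with the knockout pairs averaged (limma adjusted p = 0.110) and without control library 1, 2 or 4 or knockout library 3 (highest limma adjusted p = 0.0706).

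Among the remaining named genes no call was made. RUNX2, which activates NELL1 transcription, had a control mean of 0.20 ± 0.17 and a knockout mean of 0.25 ± 0.10 (SD, n = 4; limma adjusted p = 0.824 without the minimum mean), and SP7, which represses it, was blank throughout. CNTNAP1, a Caspr protein of axon-glia contacts, averaged -0.38 and -0.10 (limma adjusted p = 0.130 without the minimum mean). CNTNAP2, a relative of CNTNAP4, averaged 1.503 and 1.48 (limma adjusted p = 0.965), but was lower in knockout libraries 1 and 2 (0.90 and 0.98) and higher in knockout libraries 3 and 4 (2.00 and 2.03) than every control (1.36 to 1.67). For NELL2's route in the epididymis, the receptor ROS1 had a value in 1 library and the protease OVCH2 in 0. The partner ligand NICOL1, listed under its older symbol C4orf48, averaged 2.10 in the controls and 2.05 in the knockouts (limma adjusted p = 0.845).

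**Figure D4:**
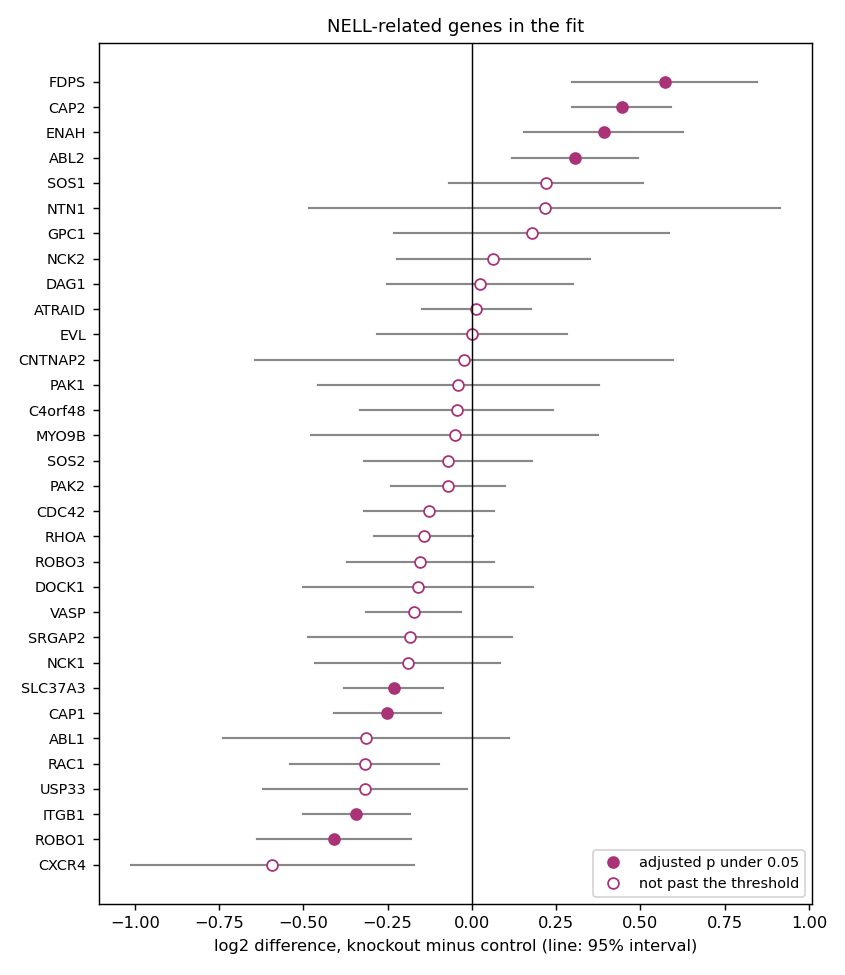
Log2 difference (knockout minus control) with its 95% interval for the 32 NELL-related genes in the limma fit, ordered by size; filled points passed an adjusted p of 0.05. FDPS, CAP2, ENAH and ABL2 are filled on the right, ROBO1, ITGB1, CAP1 and SLC37A3 on the left, and ATRAID and ROBO3 are open.

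The genes whose values over the 8 libraries were most like those of each measured gene were found by Pearson's r among the 9016 genes of the fit, as a description. For NELL2 they were CAND1, TMEM59 and UBFD1 (r = 0.99, 0.97 and 0.97), none of them called changed. For ROBO3 they were SLC6A9, ITCH and CTNNA1 (r = 0.99, 0.99 and 0.98). For ATRAID they were U2AF1L4, MRPL53 and SLC35A5 (r = 0.94, 0.93 and 0.92). For ROBO2 they were SERF1A, ZFX and YIF1A (r = 0.89, 0.88 and 0.86). A value of r above 0.9 was reached by 249 genes for NELL2 and 305 for ROBO3, but by 3 for ATRAID and 0 for ROBO2. These values share the same 8 libraries, among which the knockouts fall into close pairs.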

How the data were processed

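RNA of 8 libraries of 143B cells was extracted with TRIzol and made into libraries with a stranded total RNA kit, per the labels' protocols. The deposited table holds log2 values per gene symbol, the base inferred from their range. The submitters' processing notes name bcl2fastq, Partek 7.0 and GRCh38, with no role or order; aligner, counting rule, unit before the logarithm and blank-cell rule are not given in the sources used here. The columns share one distribution, so the authors' values were quantile normalized and a shift of most genes cannot be seen. Depth is unknown, no interval for counting error is possible, and 0 columns were left unused.

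The 9016 genes that were measured in every library and averaged 1 or more were fitted with limma 3.58.1 in R 4.3.3 (knockout minus control, Benjamini-Hochberg adjustment, called at an adjusted p under 0.05). Single genes were also compared by exact permutation tests with blank cells left out. On simulated data for 9016 genes, the fit called 89.5% of 200 genes changed by 1 log2 unit and 0.136% of the others. The simulated libraries varied independently, unlike the close knockout pairs, and the set change was larger than any difference of the 5 genes. These shares therefore do not give the error rates of the fit to the real libraries. Deviations from the group means correlated by 0.195 to 0.289 in the 4 same-numbered pairs, so by a threshold of 0.1 the replicate numbers of the titles were taken as pairs, and a fit with that block was made beside the main one. Differently numbered libraries within replicates 1-2 or 3-4 correlated as well (0.113 to 0.315), and those across these sets by -0.304 to -0.146, so the check does not separate pairing by number from a split into those sets. Positions and transcript lengths are from GENCODE 29 (GRCh38). Genes were named by a rule: the 5 genes and NELL1, list genes that were called, 11 others fixed by name, and the 3 most alike genes. Neighbours, marker genes, ROS1, OVCH2 and C4orf48 were named outside it, after their values were seen. The members and lists were chosen with earlier results of these data known. Alternatives were other filters, scalings, a pseudocount of 1, a variance trend, the block, a batch term, averaged knockout pairs, the replicate sets alone and leaving out each library; those for NELL2 and ROBO2 in the fit without a minimum mean, and those for the list counts, were added after seeing the data.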

Additional observations from a re-analysis of the deposited data

Results flagged for a closer look

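Of 39 groups of 4 libraries examined over 21 genes, 2 held a library far from the other 3, by Dixon's 95% critical value for the gap as a share of the range; chance flags about 1 in 20 such groups. ATRAID was low in knockout library 4 (log2 value 5.52), with a gap of 0.877 of the range; without it the difference was 0.06 (exact permutation p = 0.2). NELL2 was low in control library 3 (log2 value 0.92), with a gap of 0.905 of the range. Without that library the NELL2 difference was -0.44 (exact permutation p = 0.0571).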

How the results depend on the processing

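The differences of NELL2, ROBO2 and ROBO3 kept their sign in every alternative run, in the limma fits as in the permutation tests. In the limma fits they ranged from -0.49 to -0.22 (NELL2), -0.52 to -0.00467 (ROBO2) and -0.22 to -0.09 (ROBO3). The smallest value for ROBO2 came with a pseudocount of 1. All runs stayed short of the threshold, but 2 of the permutation alternatives could not have passed it. These were flipping the signs of the 4 same-numbered pair differences (lowest attainable p 0.125) and setting the 4 controls against the 2 averaged knockout pairs. ATRAID, at 0.01, turned sign in replicates 3-4 alone (-0.0844) and ranged from -0.0226 to 0.0564 when 1 library was left out, in the limma fit as in the permutation test. NELL1, at -0.01, was 0.432 with the replicate block over 3 pairs and -0.544 to 0.524 when 1 library was left out. The cause of these shifts was not tested. Where the missing entry took the library minimum of -10.48, the NELL1 difference was -1.16 (exact permutation p = 0.543), a size that follows from the value filled in. The replicate block changed no call of the 5 genes. Of 8 NELL-related calls, 5 held with the replicate block, the calls of SLC37A3, ABL2 and CAP1 being lost. The count was 0 with averaged knockout pairs, 22 in replicates 1-2 alone (4 higher, 18 lower), 11 with a batch term (4 higher, 7 lower), 3 with no minimum mean (CAP2, FDPS and ITGB1), 3 with a mean of at least 3, and 1 to 7 when 1 library was left out (1 without control library 1, 2 or 4; 3 without knockout library 1, 2 or 3; 4 without control library 3). Calls over all genes, 1183, numbered 108 with averaged knockout pairs, 2274 with a batch term, 5380 in replicates 1-2 alone, 2987 in replicates 3-4 alone, 729 with a mean of at least 3 (fewer genes tested) and 391 to 1353 when 1 library was left out (391, 431 and 444 without control library 4, 2 or 1, and 716 without knockout library 3). The 22 list calls in replicates 1-2 alone were among 32 list genes and stand beside 5380 calls among 9016 genes. The 11 with a batch term stand beside 2274 calls. The larger list counts thus came from fits that called more of all genes. In both fits more list calls were lower, whereas more calls over all genes were higher. The 3 list calls without a minimum mean were among 49 list genes and stand beside 1157 calls among 13943 genes (8.3%). The higher share of the main fit was thus not seen there. Whether the list differed from all genes in share or direction was not tested. With 4 libraries a group and no read counts, small differences of NELL1 and ROBO2 cannot be resolved.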

Other observations

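The relatives of CNTNAP4 and their contactin partners, which join as adhesion complexes on axons, were not all low in these cells. CNTNAP2, CNTNAP3B, CNTNAP3 and CNTNAP1 had means of 1.49, 0.75, 0.46 and -0.24 over the 8 libraries. CNTNAP5 and the contactins were lower. CNTN1 ranged from -2.55 to -1.74 and CNTN5 from -7.21 to -4.46 over the 8 libraries. CNTN2, CNTN3 and CNTNAP5 each had a value in 1 library, at -8.39, -8.44 and -8.69, and CNTN6 had values near -7.95 in 3. CNTN4 had a control mean of -2.86 ± 0.59 (SD, n = 4) and a knockout mean of -4.32 ± 0.79 (SD, n = 4). Without the minimum mean that difference missed the threshold (limma adjusted p = 0.0796), but passed it with the replicate block (limma adjusted p = 0.0395). CNTNAP3 and CNTNAP3B, near-identical copies whose separate values are uncertain, were both low in knockout libraries 1 and 2, with differences of -1.73 and -1.57 in replicates 1 and 2 against 0.34 and -0.02 in replicates 3 and 4.

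DCC, the netrin receptor that ROBO3 is known to partner in axons, had a value in 6 libraries, between -7.66 and -4.52, and was blank in knockout libraries 3 and 4. Its ligand gene NTN1 was measured in all 8 libraries, between 1.28 and 2.55. NTN1 differed by -0.25 in replicates 1 and 2 and by 0.68 in replicates 3 and 4. These genes were named after their values were seen.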
